A study of Mus musculus with 8 samples.

Results

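The 4 arrays described here hold hippocampal RNA of male mice at 3 weeks of age, after neonatal exposure to clothianidin (2 arrays) or vehicle (2 arrays). They were taken by their titles from the 8 arrays of the study; the other 4 hold the same exposures at 10 weeks of age. In both exposed groups the dams, not the pups, had been dosed by mouth at 65 mg/kg/day on postnatal days 1 to 4, a dose with no observed adverse effect. The control dams had received vehicle over the same days. Strain, litter and the dose that reached the pups are not given in the sources used here, and nothing states that the 2 arrays of a group come from separate animals. What the p-values weigh is thus the spread among these arrays, which may be technical.

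Clothianidin is a neonicotinoid, a class of insecticides that activate nicotinic acetylcholine receptors, the ligand-gated cation channels of cholinergic transmission. In the hippocampus these receptors lie on interneurons, on pyramidal and granule cells and on incoming axon terminals. The days after birth are a time in which granule cells of the dentate gyrus are still being born, synapses form and glia multiply, so the comparison asks whether exposure in that window is followed by a different expression profile at weaning age.

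All values are log2 intensities of transcript clusters, the probe groups that stand for a gene on a whole-transcript array. A difference is the clothianidin mean minus the vehicle mean, so that 1 unit is a 2-fold difference; its error is the standard error of a linear model in limma over all 8 arrays, with 2 arrays in each group. The tissue label was checked against marker genes. Prox1 of dentate granule cells read 10.91 to 13.01 over the 4 arrays, Wfs1 and Mpped1 of CA1 pyramidal cells 11.65 to 12.40 and 12 to 12.46, and Cpne4 of CA3 10.59 to 12.02. Each of these lay above the upper quartile of every 3-week array. Other field markers read lower: Tdo2 (4.95 to 6.16), Dsp (4.76 to 7.92), Amigo2 (5.97 to 6.53) and Rgs14 (8.01 to 8.41) reached the upper quartile of no array. Of genes of neighbouring tissue, striatal Drd1 lay below the median of all 4 arrays, at 4.40 to 4.98. Striatal Ppp1r1b (6.35 to 7.52) and thalamic Prkcd (7.51 to 8.53) lay above it. Thalamic Tcf7l2 (9.23 to 10.1) lay above the upper quartile of all 4, so the markers do not exclude neighbouring tissue.

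The first vehicle array stood apart from the other 3. It differed from them at least 2-fold in 1810, 2312 and 2112 clusters, while the other 3 arrays differed from each other in 615 to 932. Its distribution was also the narrowest, with a standard deviation of 3.14 against 3.26 to 3.30. Choroid plexus genes divided the arrays another way. Ttr, the thyroid hormone carrier of that epithelium, read 6.49 and 19.16 in the vehicle arrays and 18.82 and 7.09 in the clothianidin arrays, so each group holds 1 array with high and 1 with low values. Differences below are therefore given with and without the first vehicle array, written "without" for short where a value stands in brackets. Without it the vehicle side is a single array, the one with high Ttr, whose spread is assumed to be that of the other groups.

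No cluster passed the threshold of an adjusted p of 0.05 at 3 weeks (0 of 22206, or 0%), and the lowest adjusted p in limma was 0.626. Before adjustment, 1310 clusters (5.90%) had a p under 0.05. A looser count asked for an unadjusted p under 0.05 and at least a 1.5-fold difference, and it held 1295 clusters (5.83%), 622 higher (2.80%) and 673 lower (3.03%) after clothianidin. Higher clusters were 48.0% of that count. They were 61.6% (811 of 1317) when each array was centred on its median and 59.5% (825 of 1386) when the arrays were scaled to the same median and spread. Without the first vehicle array the looser count held 762 clusters (3.43%), 361 higher (1.63%) and 401 lower (1.81%), and 349 (1.57%) met it in the same direction with and without that array. The adjusted threshold was again passed by 0 clusters in limma, with a lowest adjusted p of 0.999. The looser count was 2923 when the second vehicle array was left out, 812 without the first clothianidin array and 1155 without the second. An exact permutation test of 2 against 2 arrays cannot give a two-sided p below 0.333, so no single gene could be tested that way.

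The direction of the difference went with the level of the cluster. In the brighter clusters, from the median level of 5.76 upwards, the looser count held 437 higher (3.94%) and 233 lower (2.10%), and among dimmer clusters 185 higher (1.67%) and 440 lower (3.96%). When clusters were ranked by mean level and cut into 10 equal bins, the median difference was -0.07 in the second bin and 0.10 in the brightest. When the first vehicle array was left out, these medians were 0.03 and -0.01. The first vehicle array itself read 0.17 above the second vehicle array in the second bin and 0.23 below it in the brightest. In the same bins the clothianidin arrays lay between -0.02 and 0.04 of the second vehicle array. The slope was not particular to 3 weeks: the 10-week difference, which does not use these arrays, was -0.07 in the second bin and 0.075 in the brightest. Its cause was not tested. Most hippocampal neuronal genes are bright, so a list of such genes is read below against the median of 0.06 over all bright clusters (-0.01 without the first vehicle array).

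**Figure D1:**
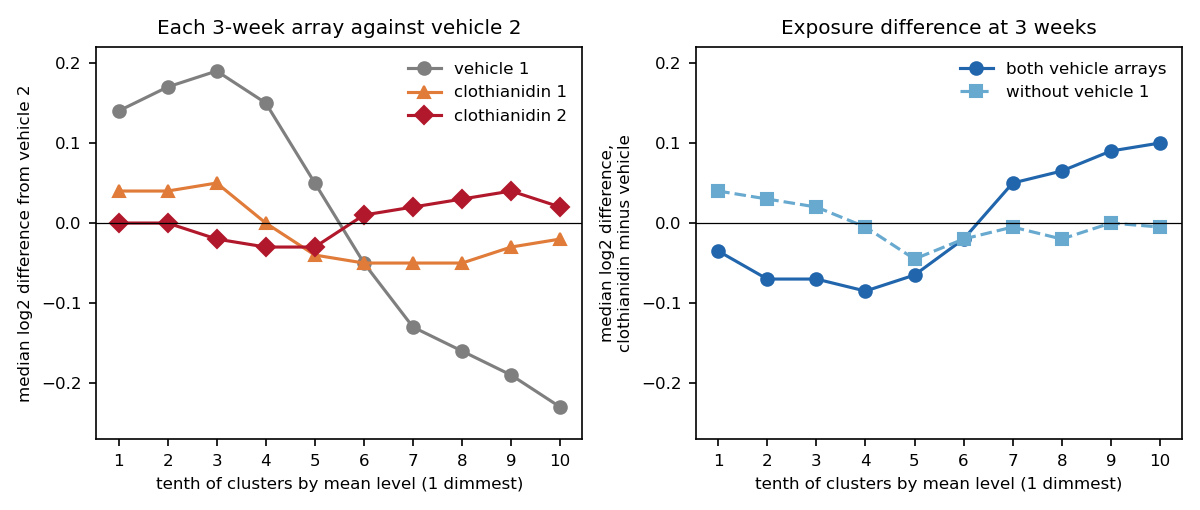
Median log2 difference (y axes) in 10 equal bins of clusters ranked by mean level over all 8 arrays (x axes, 1 is dimmest). Left, each other 3-week array against the second vehicle array; right, clothianidin minus vehicle with both vehicle arrays and without the first. The first vehicle array runs from 0.14 in the dimmest to -0.23 in the brightest bin, and the slope of the 3-week exposure difference is not seen without it. The 10-week difference, which is not drawn, was -0.07 in the second bin and 0.075 in the brightest.

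The genes that stood furthest apart regardless of the first vehicle array were sought among genes at or above the median level. They had to show no overlap between the groups, an unadjusted p under 0.05 and a difference that kept at least 0.8 of its size without that array. Of 10062 genes at that level, 390 higher and 188 lower ones met the conditions before the last. Predicted genes, small RNAs and chemosensory receptors were left out of these counts. The last condition left 117 higher and 114 lower genes, and the 10 with the largest test statistic in each direction are described. Arrays without overlap are common here, with 34.4% of all clusters (17.2% in each direction). None of the genes named in this report passed over all clusters.

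Among the higher genes, Cdkn1a, the p21 inhibitor of cyclin-dependent kinases, read 5.64 and 5.66 in vehicle and 6.96 and 7.36 after clothianidin. The difference was 1.51 ± 0.29 (2.85-fold), and 1.5 without the first vehicle array (adjusted p of 0.846 in limma). Polr2l, a small subunit shared by the RNA polymerases, read 6.94 and 6.55 in vehicle and 8.42 and 7.64 after clothianidin, a difference of 1.28 ± 0.32 (1.48 without). Tgs1, which adds methyl groups to the caps of small nuclear RNAs, read 6.82 and 7.28 against 8.33 and 8.26, a difference of 1.25 ± 0.34 (1.01 without). Rtf1, a transcription elongation factor of the Paf1 complex, read 9.73 and 10.13 against 11.07 and 10.86 (1.03 ± 0.29, and 0.83 without). In each of these 3 genes both clothianidin arrays lay above both vehicle arrays by more than the vehicle arrays differed from each other. Ftsj1, a methyltransferase of transfer RNA on the X chromosome, had the smallest difference of the 10 at 0.86 ± 0.25 (0.79 without), with nearly equal clothianidin arrays at 9.17 and 9.15 against 8.22 and 8.37 in vehicle. The transcription factor gene Klf7, which acts in developing neurons, read 9.63 and 9.87 in vehicle and 10.67 and 10.97 after clothianidin (1.07 ± 0.30, and 0.95 without). The remaining 4 were Slc35a4, of a family of nucleotide sugar transporters (1.20 ± 0.28, and 0.96 without), Fam104a (1.27 ± 0.30, and 1.16 without), the dihydrodiol dehydrogenase gene Dhdh (1.10 ± 0.28, and 1.05 without) and the zinc finger gene Zfp385b (1.06 ± 0.31, and 0.85 without). Over the 10 genes the differences ran from 0.86 to 1.51, and from 0.79 to 1.5 without the first vehicle array. Polr2l leaned on 1 array: it differed by 1.68 without the second clothianidin array and by 0.90 without the first.

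Cdkn1a is a textbook target of p53, and its promoter was looked at for that reason. RefSeq lists 2 start sites, and the 250 bases before the upstream one (GRCm38.p6, chr17:29090729-29090978, plus strand) are shown with a match to a pair of CATG cores in capitals, the central letters of a p53 element.
Cdkn1a: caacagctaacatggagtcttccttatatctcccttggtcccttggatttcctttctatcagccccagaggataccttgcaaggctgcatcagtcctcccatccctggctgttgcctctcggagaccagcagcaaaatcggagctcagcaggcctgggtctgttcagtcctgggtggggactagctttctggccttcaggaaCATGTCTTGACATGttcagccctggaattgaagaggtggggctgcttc
The pattern searched was CATG, then 6 bases of any kind, then CATG, which reads the same on both strands. It lies 34 bases before that start and occurs in 161 of 32851 RefSeq promoter windows of this length (0.490%). It was in 1 of the 25 windows found for genes of the p53 list below, this one. A match is a description of the letters and not a measured binding site.

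Among the lower genes, Eif2s3y, the Y-linked copy of a translation initiation factor subunit, read 9.77 and 9.83 in vehicle and 7.87 and 8.30 after clothianidin. The difference was -1.72 ± 0.28, or 3.28-fold lower, and -1.74 without the first vehicle array (adjusted p of 0.626 in limma). Its X-linked counterpart Eif2s3x read 12.53 and 12.86 in vehicle and 12.78 and 12.98 after clothianidin, so the groups overlapped. The Y-linked genes did not stand together: Sry, the testis-determining gene, read 5.84 and 5.21 against 4.46 and 4.52 (-1.03 ± 0.30, and -0.72 without), whereas Kdm5d and Uty overlapped. Of 11 Y-linked genes and X-linked partners measured, 5 were higher and 6 lower. Without overlap 4 were lower and 1 higher, against 17.2% of all clusters in each direction. The looser count held 2 of the 11, both lower (3.03% of all clusters).

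Eed, a core subunit of the Polycomb repressive complex that methylates histones, read 8.06 and 8.08 in vehicle and 7.18 and 7.26 after clothianidin (-0.85 ± 0.26, and -0.86 without). Parp2, which adds ADP-ribose at DNA breaks, read 6.18 and 6.36 against 5.10 and 5.24 (-1.10 ± 0.28, and -1.19 without). In both genes the arrays of a group lay within 0.2 of each other. Slc39a12, a zinc importer of the brain, was as tight, at 11.64 and 11.70 in vehicle and 10.81 and 10.78 after clothianidin (-0.88 ± 0.26, and -0.91 without). The RNA-binding gene Rbm7, which guides nuclear RNA to the exosome, read 11.18 and 10.96 against 9.96 and 10.24 (-0.97 ± 0.28, and -0.86 without). Araf, a kinase of the Raf family on the X chromosome, read 12.50 and 12.18 against 11.08 and 11.56 (-1.02 ± 0.30, and -0.86 without). Rsrp1 differed by -1.34 ± 0.37 (-1.20 without), but its clothianidin arrays read 7.49 and 8.66, and without the first of them the difference was -0.75. The other lower genes were Sec22a of vesicle transport between endoplasmic reticulum and Golgi (-0.93 ± 0.27, and -0.92 without), Zfp472 (-0.92 ± 0.27, and -0.94 without) and Bclaf3 (-0.98 ± 0.30, and -1.04 without). The 10 differences ran from -1.72 to -0.85, and from -1.74 to -0.86 without the first vehicle array.

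**Figure D2:**
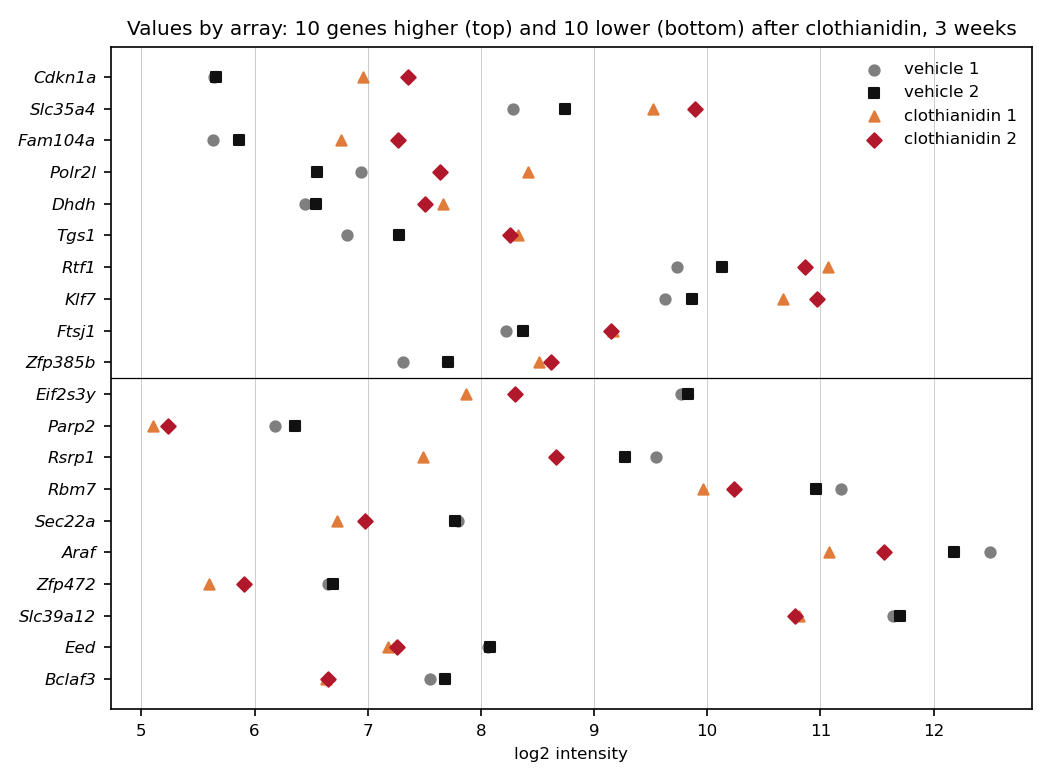
Log2 intensity (x axis) of each 3-week array for the 10 higher genes (above the line) and the 10 lower genes (below the line), 1 point per array. In each gene both clothianidin arrays lie on the same side of both vehicle arrays, a condition by which the genes were chosen; the differences run from 0.86 to 1.51 in the higher and from -1.72 to -0.85 in the lower genes.

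Other genes owed most of their difference to the first vehicle array. By the same conditions, but with under 0.5 of the difference left without that array, 86 of 390 genes were higher and 8 of 188 lower. The largest was Gstk1, a glutathione transferase of mitochondria and peroxisomes, which read 5.17 in the first vehicle array and 7.41, 7.59 and 7.76 in the other 3. Its difference was 1.38 ± 0.61, and 0.26 without that array. Stk11, the kinase LKB1 that activates AMPK, read 7.43 and 9.05 in vehicle and 9.63 and 9.55 after clothianidin (1.35, and 0.54 without). Nf2, which encodes the growth suppressor merlin, read 7.77 and 9.60 against 10.02 and 9.97 (1.31, and 0.40 without). Dad1, a subunit of the enzyme that glycosylates asparagines, differed by 1.37 and 0.50, and Atp5g1, of the membrane ring of ATP synthase, by 1.32 and 0.58. In the other direction the autophagy gene Atg16l2 read 12.61 in the first vehicle array against 10.69, 10.23 and 10.62, so its difference of -1.23 was -0.26 without that array. Cdr1os, the transcript opposite the circular RNA locus Cdr1, went from -0.90 to -0.40, the cilium transport gene Traf3ip1 from -0.86 to -0.31, the proton channel gene Otop2 from -0.84 to -0.21 and the synaptotagmin gene Syt10 from -0.82 to -0.32.

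The X-linked Xlr genes, a mouse family of lymphocyte and germ cell proteins in which some copies are imprinted, held a pair of low-level genes with separated groups. Xlr4c read 6.18 and 5.71 in vehicle and 4.41 and 4.44 after clothianidin, a difference of -1.52 ± 0.31 (-1.28 without the first vehicle array). Xlr4b read 5.53 and 4.38 against 3.42 and 3.41 (-1.54 ± 0.49, and -0.96 without). Xlr4a overlapped, at 4.79 and 4.82 against 5.13 and 4.51. Of the 12 Xlr and related genes measured 11 were lower and 1 higher, with a median of -0.34. Without the first vehicle array 8 were lower and 4 higher, with a median of -0.22. Dim clusters as a whole had a median of -0.06, and 2 of the 12 were in the brighter clusters. The 3 Xlr4 copies are shown because their sequences are almost the same, which bears on how far an array can tell them apart. The stretches below are the shared parts of their RefSeq promoter windows (GRCm38.p6; Xlr4b chrX:73214090-73214309, plus strand; Xlr4c chrX:73243131-73243350, minus strand; Xlr4a chrX:73082538-73082757, minus strand), with bases that differ from Xlr4b, or in Xlr4b from either other copy, in capitals.
Xlr4b: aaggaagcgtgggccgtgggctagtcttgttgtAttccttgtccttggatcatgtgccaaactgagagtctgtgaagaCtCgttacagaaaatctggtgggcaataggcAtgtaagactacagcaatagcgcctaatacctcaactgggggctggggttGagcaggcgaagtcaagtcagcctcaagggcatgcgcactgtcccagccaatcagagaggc
Xlr4c: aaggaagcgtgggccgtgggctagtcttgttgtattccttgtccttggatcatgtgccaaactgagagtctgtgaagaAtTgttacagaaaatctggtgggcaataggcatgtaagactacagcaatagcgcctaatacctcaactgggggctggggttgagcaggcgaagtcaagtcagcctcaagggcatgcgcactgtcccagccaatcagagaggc
Xlr4a: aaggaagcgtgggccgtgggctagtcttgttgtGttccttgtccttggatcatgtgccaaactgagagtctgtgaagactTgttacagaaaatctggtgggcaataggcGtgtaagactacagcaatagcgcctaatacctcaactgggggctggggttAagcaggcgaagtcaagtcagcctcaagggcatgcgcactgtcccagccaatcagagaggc
Xlr4b and Xlr4c were identical at 225 of 227 aligned bases (99.1%), and Xlr4b and Xlr4a at 239 of 243 (98.4%). Which probes each cluster holds is not given here, so the values of Xlr4b and Xlr4c may come in part from the same transcripts and are uncertain as separate genes.

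Lists of genes were then described by how many members were higher or lower and by their median difference. No list was tested as a set. Across 50 lists with 872 distinct measured genes, 0 genes passed the adjusted threshold in limma. The medians of 34 lists were above 0 and of 15 below. When the first vehicle array was left out, 25 were above and 25 below, and 17 had changed sign. Under quantile normalisation, median centring or scaling of the arrays, 19 lists took the other sign in at least 1 of the 3, so no direction is read from their medians. These were NMDA and kainate receptors, GABA and glutamate enzymes and transporters, neurotrophins, matrix, dentate granule cells, CA1, astrocytes, myelin, oligodendrocyte precursors, microglia, choroid plexus, the unfolded protein response, apoptosis, xenobiotic metabolism, glycolysis, cholesterol synthesis, the clock, and the Y-linked genes with their X-linked partners. Leaving out the second vehicle array turned 13 medians, the first clothianidin array 10 and the second 15. Of the 50 lists, 11 lists had a median of 1 sign under these 3 scalings and without each of the 4 arrays in turn. They were AMPA receptors, metabotropic glutamate receptors, GABA receptors, potassium channels, nicotinic receptor chaperones, the respiratory chain, antioxidant defence, thyroid hormone response, p53 targets, Xlr genes and genes of cortex, thalamus and striatum. The sign was taken against 0 and not against the median of 0.06 over all bright clusters. Without the first vehicle array the AMPA median was 0.005 and the chaperone median 0.02, so 1 sign alone is not a firm direction.

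**Figure D3:**
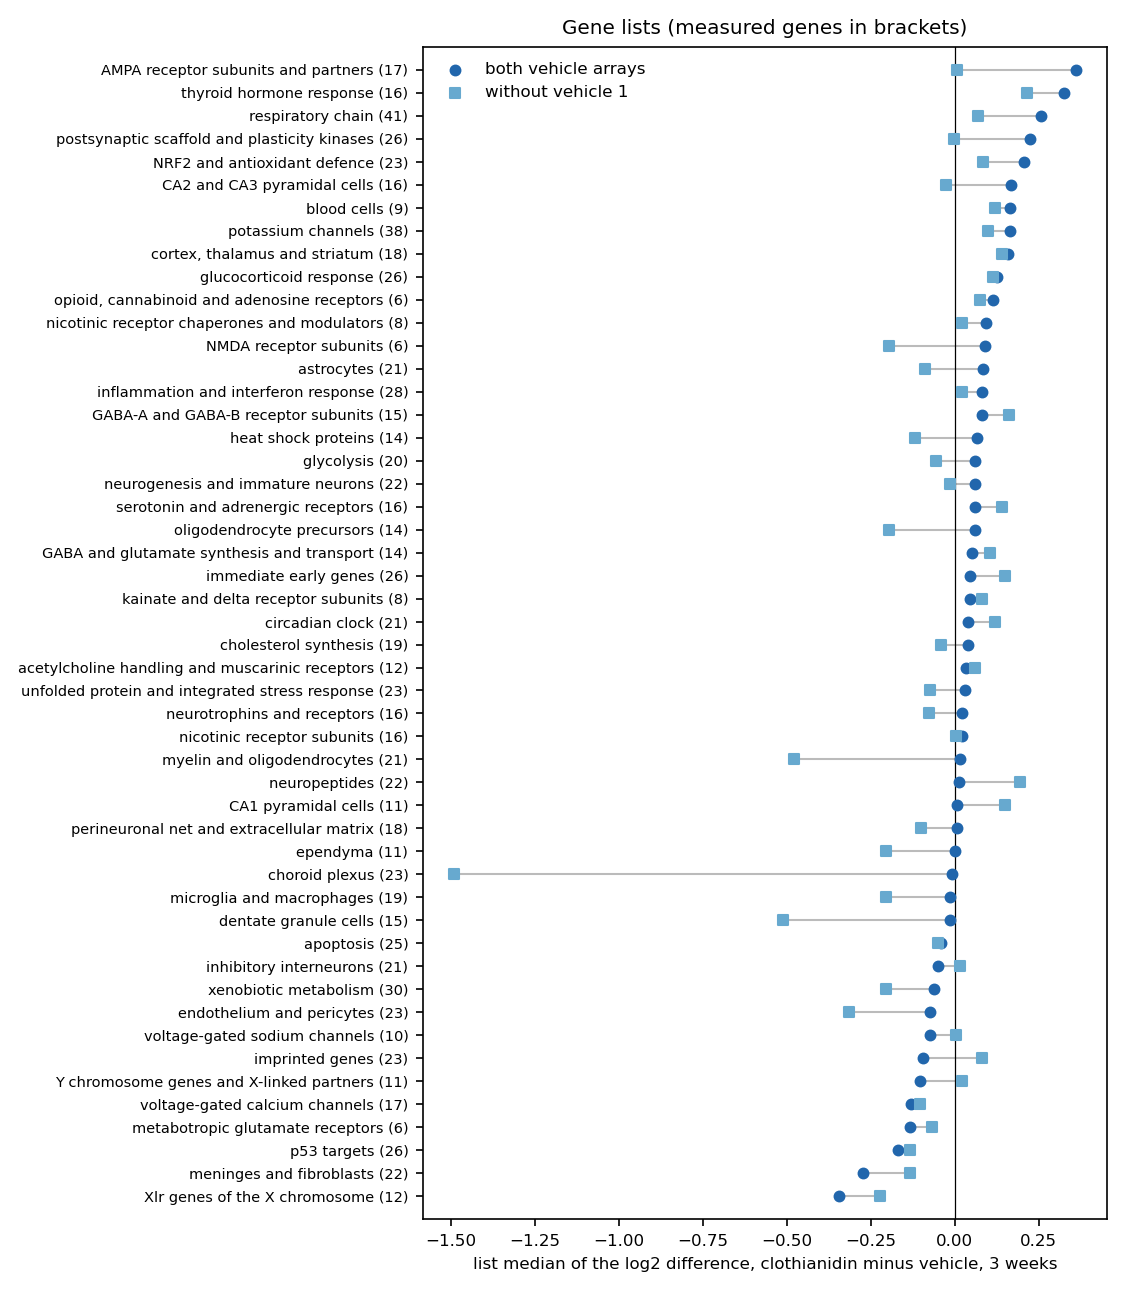
Median log2 difference, clothianidin minus vehicle at 3 weeks (x axis), of 50 gene lists (y axis, measured genes in brackets), with both vehicle arrays (circles) and without the first (squares). The AMPA receptor list moves from 0.36 to 0.01, the choroid plexus list from -0.01 to -1.49, and the p53 list stays between -0.17 and -0.13.

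Of the nicotinic receptor subunits, 1 dim gene, Chrnd, was in the looser count, which held 5.83% of all clusters. Among 16 nicotinic subunits 8 were higher and 8 lower, with a median of 0.02. Chrnb2, which forms the main brain receptor with Chrna4, read 9.58 and 9.79 in vehicle and 10.00 and 10.11 after clothianidin (0.37 ± 0.27, and 0.27 without), and Chrna4 read 13.11 and 11.65 against 12.10 and 12.12. The Chrna4 values thus show 1 high vehicle array, and the difference of -0.27 was 0.46 without it. Chrna6, a subunit of dopaminergic terminals, read 6.94 and 6.34 against 6.04 and 5.89 (-0.68 ± 0.35, and -0.38 without), and Chrnd, a subunit of muscle, differed by -1.01 ± 0.29 (-0.77 without) at levels under the lower quartile on all 8 arrays. The chaperones and modulators of the receptor were higher in 5 of 8 cases, with a median of 0.09 (0.02 without the first vehicle array). Ly6e, a membrane-anchored Ly6 protein, read 15.72 and 16.01 in vehicle and 16.40 and 16.49 after clothianidin (0.58 ± 0.27, and 0.43 without). Lynx1, a brake on nicotinic receptors, read 10.66 and 11.98 against 12.08 and 12 (0.72 ± 0.38, and 0.06 without the first vehicle array).

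Acetylcholine also acts on muscarinic receptors, which couple to G proteins. Chrm3 read 8.06 and 8.93 in vehicle and 9.24 and 9.16 after clothianidin, a difference of 0.70 ± 0.31 that was 0.27 without the first vehicle array. Bche, the butyrylcholinesterase that can break down acetylcholine, read 4.96 and 4.37 against 5.25 and 5.26 (0.59 ± 0.33, and 0.89 without). Of the 12 genes of acetylcholine handling and muscarinic receptors 8 were higher and 4 lower, and 1, Chrm3, met the looser count, against 5.83% of all clusters.

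Glutamate receptor genes showed how far the first vehicle array reached. AMPA receptors carry fast excitation, and TARP and other partners bring them to the synapse. Of these 17 genes 15 were higher and 2 lower, with a median of 0.36. Without the first vehicle array 9 were higher and 8 lower, with a median of 0.01. The list read 0.60 lower in the first than in the second vehicle array at the median. Cacng8, a TARP of the hippocampus, read 9.79 and 11.04 in vehicle and 11.60 and 11.07 after clothianidin (0.92 ± 0.49, and 0.29 without). Cacng4 read 10.27 and 10.74 against 11.35 and 10.80 (0.57 ± 0.31, and 0.34 without). The core subunit genes Gria2 and Gria3 differed by 0 and 0.02. For NMDA receptors 4 of 6 genes were higher, with a median of 0.09 that was -0.20 without the first vehicle array. Grin2c differed by 0.69 ± 0.33 (0.40 without) and Grin2d by -0.63 ± 0.36 (-0.20 without). Metabotropic receptors were lower in 5 of 6 cases (median -0.13), but in 3 of 6 (median -0.07) when the first vehicle array was left out; 0 were in the looser count, and Grm3 (-0.28 ± 0.28, and -0.25 without) and Grm6 (-0.35 ± 0.36, and 0.14 without) had the largest test statistics.

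Among inhibitory receptors, Gabra2 and Gabrb1 kept most of their difference without that array. Gabra2, a GABA-A receptor subunit of pyramidal cells, read 14.12 and 14.18 in vehicle and 14.99 and 14.82 after clothianidin. The difference was 0.76 ± 0.26 (0.72 without the first vehicle array). Gabra2 was the only one of the 15 GABA receptor genes in the looser count, which held 5.83% of all clusters. Gabrb1 read 10.76 and 11.05 against 11.52 and 11.54 (0.62 ± 0.29, and 0.48 without). Of the list 10 were higher and 5 lower, with a median of 0.08 and of 0.16 without the first vehicle array. Among GABA and glutamate enzymes and transporters, Gad1, which makes GABA, differed by -0.43 ± 0.30 (-0.33 without) and the glutamate transporter gene Slc1a1 by 0.40 ± 0.28 (0.33 without), with no gene in the looser count.

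Channels that set excitability were mixed. Cacnb1, a beta subunit of voltage-gated calcium channels, read 13.82 and 13.76 in vehicle and 14.93 and 14.54 after clothianidin, 0.94 ± 0.30, and 0.98 without the first vehicle array. The 17 calcium channel genes were nevertheless lower in 10 and higher in 7 cases, with a median of -0.13 that was 0.14 without the first clothianidin array. Potassium channel genes were higher in 26 and lower in 12 of 38 cases, with a median of 0.16 (0.10 without the first vehicle array). The looser count held 3 of them, against 5.83% of all clusters. Kcnb2, of slow delayed rectifier current, read 7.59 and 8.51 against 8.66 and 9.18 (0.87 ± 0.34, and 0.41 without). Kcnip3, which binds the Kv4 channels of dendrites, read 15.49 and 15.74 against 16.24 and 16.26 (0.64 ± 0.29, and 0.51 without). Kcna4, also in the looser count, differed by 1.02 ± 0.46 but by 0.23 without the first vehicle array. Sodium channel genes were lower in 7 of 10 cases, with a median of -0.08 that was near 0 without that array.

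Genes of the postsynaptic density and its kinases were higher in 18 of 26 cases, with a median of 0.22. The looser count held 3 of them, each higher (3.94% of all bright clusters). When the first vehicle array was left out, 13 were higher and 13 lower. Shank2, a master scaffold, read 9.38 and 9.47 in vehicle and 10.18 and 10.07 after clothianidin (0.70 ± 0.27, and 0.66 without). Nrgn, which holds calmodulin in spines, read 12.95 and 14.55 against 15.02 and 14.88 (1.20 ± 0.47, and 0.40 without). Nlgn3, a synaptic adhesion gene, read 13.11 and 13.41 against 13.95 and 13.86 (0.64 ± 0.28, and 0.49 without). Shank2 and Nlgn3 were thus separated by more than the spread of either group, while the Nrgn difference lay mostly in 1 vehicle array. Among matrix genes, 9 of 18 were higher and 9 lower, and 6 were lower without overlap (17.2% of all clusters), among them Hapln1, a link protein of perineuronal nets, at 10.67 and 10.57 in vehicle and 9.75 and 10.24 after clothianidin (-0.62 ± 0.29, and -0.57 without).

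Of 26 immediate early genes, which neuronal activity induces, 14 were higher and 12 lower, with a median of 0.04. Left without the first vehicle array, 19 were higher and 6 lower (median 0.15), but the median was -0.10 when the second vehicle array was omitted and -0.07 when the second clothianidin array was. Fosl2, a partner in the AP-1 transcription factor, read 7.41 and 7.05 in vehicle and 8.07 and 8.20 after clothianidin, a difference of 0.90 ± 0.28, and 1.08 without the first vehicle array. Nr4a3, an orphan nuclear receptor gene, read 13.86 and 14.51 against 15.32 and 14.86 (0.90 ± 0.33, and 0.58 without). Fos itself read 4.42 and 2.94 against 2.91 and 3.85, close to the dimmest part of the arrays. Of 22 neuropeptide genes, a list that also holds Bdnf, 11 were higher and 10 lower, with a median of 0.01. Omitting the first vehicle array gave 16 higher and 6 lower (median 0.195). Dropping the second array of the vehicle group gave a median of -0.10, and dropping that of the clothianidin group gave -0.07. The looser count, which held 5.83% of all clusters, included 3 of these genes, each higher. Chgb, a granin of dense-core vesicles, read 13.62 and 14.19 against 14.88 and 14.58 (0.82 ± 0.29, and 0.54 without). Cck, the cholecystokinin of basket and pyramidal cells, read 14.87 and 15.48 against 16.10 and 16.04 (0.90 ± 0.36, and 0.59 without). Bdnf, the neurotrophin of activity-dependent plasticity and the last of the 3, read 8.40 and 9.63 against 10.13 and 9.85 (0.97 ± 0.43, and 0.36 without).

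Markers of neurogenesis and of the hippocampal fields gave no common direction. Sox2, kept on in neural stem cells and astrocytes, read 9.04 and 9.5 in vehicle and 10.03 and 9.81 after clothianidin (0.65 ± 0.27, and 0.42 without the first vehicle array). It was the only one of 22 neurogenesis genes in the looser count (5.83% of all clusters). Dcx of immature neurons read 7.30 and 7.44 against 7.94 and 7.61. For dentate granule cells 7 of 15 genes were higher and 8 lower, with a median of -0.01. Without the first vehicle array 12 were lower, with a median of -0.51, and the list read 0.86 lower in the first than in the second vehicle array. Tdo2 read 4.95 and 5.81 against 6.15 and 6.16, and Prox1 10.91 and 12.37 against 13.01 and 11.83. CA1 genes were higher in 6 of 11 cases (median 0.01, and 0.15 with 9 higher without) and CA2 and CA3 genes in 12 of 16 (median 0.17, and -0.03 without), with 0 in the looser count in either. Among interneuron genes, Adarb2, of interneurons from the caudal eminence, read 7.06 and 7.54 against 6.41 and 6.77 (-0.71 ± 0.30, and -0.95 without), while Pvalb of fast-spiking basket cells differed by 0.60 ± 0.38 (0.33 without). In bulk tissue, fewer cells of a type and less RNA per cell cannot be told apart.

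Myelin genes were higher in 11 of 21 and lower in 10 cases, with a median of 0.01. When the first vehicle array was left out, 18 were lower, with a median of -0.48. Mag, an adhesion protein of the myelin sheath, shows the pattern at 10.67 and 11.86 in vehicle and 10.70 and 10.82 after clothianidin. The second vehicle array is the high one, and the difference of -0.50 became -1.10 without the first. Anln, a scaffold of dividing and myelinating cells, read 5.74 and 6.45 against 7.41 and 6.79 (1.00 ± 0.41, and 0.65 without). In the precursors Olig2, the transcription factor of the oligodendrocyte lineage, read 9.79 and 9.62 in vehicle and 10.58 and 10.33 after clothianidin. Its difference was 0.75 ± 0.27, and 0.84 without the first vehicle array, whereas its neighbour in function Olig1 overlapped at 9.12 and 10.16 against 10.11 and 9.81.

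Astrocyte genes were higher in 12 of 21 cases, but lower in 16 of 21 without the first vehicle array (medians 0.08 and -0.09). None was in the looser count, and the largest test statistics were those of Acsbg1, an acyl-CoA synthetase (-0.60 ± 0.31, and -0.46 without), and Agt, the angiotensin precursor (0.81 ± 0.43, and 1.06 without). Of 19 microglia and macrophage genes 9 were higher and 10 lower, with 3 in the looser count (5.83% of all clusters). C1qb, a chain of complement C1q, read 6.93 and 7.18 in vehicle and 7.84 and 7.65 after clothianidin (0.69 ± 0.27, and 0.56 without). Aif1, a marker of microglia, read 5.28 and 6.62 against 6.76 and 7.10 (0.98 ± 0.39, and 0.31 without), and Pf4, of border macrophages, differed by -0.71 ± 0.31 (-0.49 without). P2ry12, the homeostatic purine receptor of microglia, read 12.23 and 12.13 against 11.64 and 11.77, so members of the list lay apart in both directions.

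Vessel and border genes are given with the choroid plexus values beside them. The choroid plexus list held 23 measured genes, 10 higher and 13 lower, with a median of -0.01. Kcnj13, a potassium channel of this epithelium, read 6.70 and 12.02 in vehicle and 11.68 and 7.09 after clothianidin, and Folr1, a folate receptor, read 3.81 and 9.57 against 9.04 and 3.55. Without the first vehicle array 22 of the 23 were lower, with a median of -1.49, since the remaining vehicle array is one with high values. Between the arrays of high Ttr (the first clothianidin and second vehicle array) the list median was -0.39, and between those of low Ttr it was 0.09. Ace, the angiotensin-converting enzyme, was the only member in the looser count (5.83% of all clusters), at 7.17 and 8.38 against 6.88 and 6.02 (-1.32 ± 0.55, and -1.93 without).

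Cd36, a fatty acid receptor and transporter of endothelium and macrophages, read 3.37 and 4.11 in vehicle and 6.33 and 6.44 after clothianidin. The first vehicle value lies under the lower quartile of its array (4.13) and the second just above its own (3.94), so the size of the difference is uncertain. It was 2.64 ± 0.42, and 2.28 without the first vehicle array, with an adjusted p of 0.626 in limma. The 23 vessel genes were lower in 15 and higher in 8 cases, with a median of -0.08 (-0.32 without the first vehicle array, and near 0 without the second). Tek, the angiopoietin receptor of endothelium, read 6.37 and 6.57 against 7.24 and 7.15 (0.72 ± 0.26, and 0.62 without), and Slco1a4, an organic anion carrier of the blood-brain barrier, read 11.17 and 11.40 against 10.43 and 10.88 (-0.63 ± 0.29, and -0.74 without). Genes of the same cell type thus differed in opposite directions. Meningeal and fibroblast genes were lower in 15 of 22 cases, with a median of -0.27 (-0.13 without, but 0.10 when the first clothianidin array was left out) and none in the looser count, led by Bmp6 (-0.93 ± 0.46, and -1.30 without) and Col6a2 (-0.70 ± 0.35, and -0.32 without). Of 11 ependymal genes 5 were higher and 6 lower, with a median of 0 (-0.20 without). In the looser count, which held 5.83% of all clusters, were the cilium genes Tekt4 (-1.10 ± 0.34, and -1.02 without) and Ccdc153 (-0.98 ± 0.32, and -0.54 without). Tekt4 read 5.82 and 5.67 in vehicle and 4.54 and 4.75 after clothianidin.

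**Figure D4:**
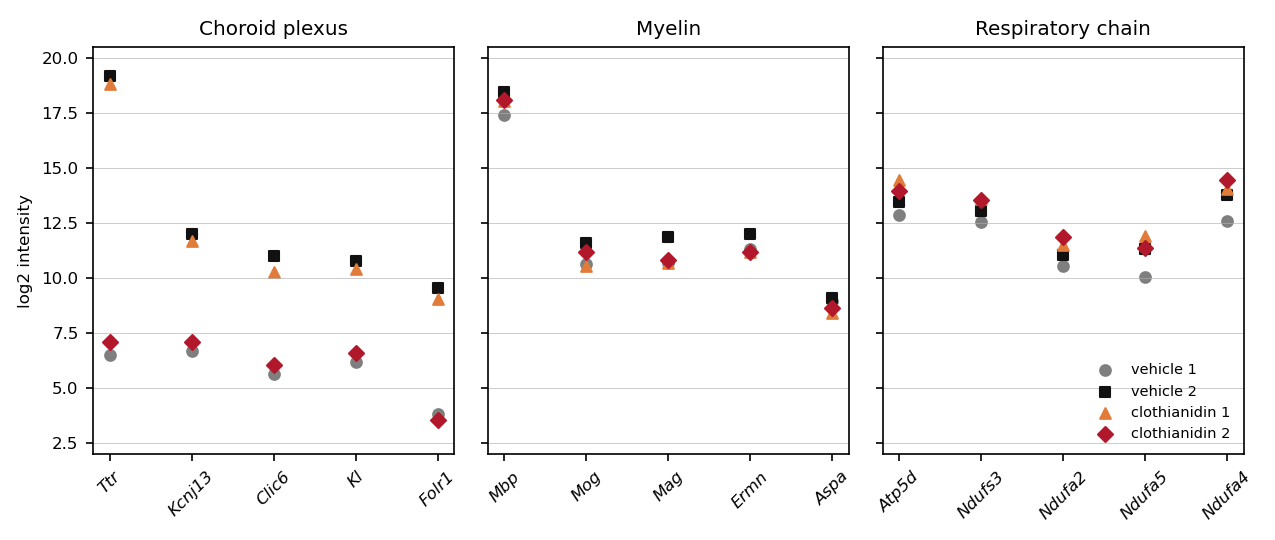
Log2 intensity (y axis) of each 3-week array for genes of the choroid plexus, of myelin and of the respiratory chain (x axes). Choroid plexus genes are high in the second vehicle and first clothianidin arrays, Mag is highest in the second vehicle array at 11.86, and Ndufa4 and Ndufa5 are lowest in the first vehicle array at 12.59 and 10.06.

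Stress responses were read from lists of known targets. Of 26 p53 targets 18 were lower and 8 higher, with a median of -0.17, and of -0.13 with 20 lower without the first vehicle array. Cdkn1a was the only one higher without overlap, against 7 lower without overlap, where 17.2% of all clusters are separated in each direction. Among those 7, Sesn1, a stress-induced regulator of growth signalling, read 9.32 and 9.70 in vehicle and 8.45 and 9.23 after clothianidin (-0.67 ± 0.33, and -0.86 without), and Bbc3, the apoptosis inducer PUMA, 5.03 and 4.46 against 4.17 and 4.35 (-0.48 ± 0.29, and -0.20 without). Pmaip1, another apoptosis inducer, differed by -0.83 ± 0.37 (-0.31 without) with overlap. Glucocorticoid-responsive genes, which also include Cdkn1a, were higher in 17 of 26 cases, with a median of 0.12 that was -0.04 without the second clothianidin array. Zbtb16 read 10.76 and 11.72 against 11.94 and 12.33 (0.90 ± 0.33, and 0.41 without), while the fat metabolism regulator Angptl4 differed by -0.84 ± 0.36 (-0.31 without).

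Antioxidant genes were higher in 17 of 23 cases (median 0.20), with 9 higher against 1 lower without overlap (17.2% each way over all clusters). Most of the list is bright, and of the 11104 bright clusters 2455 were higher and 1623 lower without overlap. When the first vehicle array was left out, 14 were higher and 9 lower, with a median of 0.09. Gsr, which regenerates glutathione, read 9.23 and 9.46 in vehicle and 10.10 and 9.93 after clothianidin (0.67 ± 0.27, and 0.56 without). Gstp1, which conjugates glutathione, read 10.19 and 11.33 against 11.55 and 11.59 (0.81 ± 0.37, and 0.24 without). The master factor of the pathway, Nfe2l2, read 4.47 and 4.55 against 4.89 and 5.24. Xenobiotic metabolism was mixed, with 12 of 30 genes higher and 18 lower. Cyp3a13, a cytochrome P450, read 3.32 and 3.12 in vehicle and 4.48 and 4.67 after clothianidin (1.36 ± 0.32, and 1.46 without), and the sulfotransferase gene Sult2a2 4.28 and 4.61 against 6.29 and 5.78 (1.59 ± 0.38, and 1.43 without). The xenobiotic sensors that can induce such enzymes in liver lay the other way: Nr1i2 (PXR) differed by -0.85 ± 0.33 (-0.39 without) and Nr1i3 (CAR) by -0.65 ± 0.28 (-0.43 without). These 4 genes read low, at 3.12 to 6.29.

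The remaining stress lists held little. Of 23 genes of the unfolded protein response 12 were higher and 11 lower with none in the looser count, led by Atf3 (-0.56 ± 0.29, and -0.51 without) and the chaperone gene Hspa5 (-0.50 ± 0.31, and -0.63 without). Among 14 heat shock genes Hspb1 differed by 0.73 ± 0.28 (0.53 without) and Hspa4l by -0.59 ± 0.29 (-0.47 without). Of 28 inflammation and interferon genes 16 were higher and 12 lower, with a median of 0.08 (-0.01 without the first clothianidin array) and none in the looser count, and 7 of them lay below the lower quartile of all 8 arrays.

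Nuclear genes of the respiratory chain and ATP synthase were higher in 33 of 41 cases, with a median of 0.26. Without overlap 19 were higher and 3 lower, against 17.2% each way over all clusters. Among the 11104 bright clusters, which hold 40 of the 41 genes, 2455 were higher and 1623 lower without overlap. The list median was 0.07 without the first vehicle array, with 26 higher and 15 lower, and the first vehicle array read 0.40 below the second. Atp5d, a stalk subunit of ATP synthase, read 12.86 and 13.44 in vehicle and 14.44 and 13.97 after clothianidin (1.05 ± 0.39, and 0.77 without). Ndufs3, of the electron-input arm of complex I, read 12.56 and 13.06 against 13.61 and 13.57 (0.78 ± 0.31, and 0.53 without). Glycolysis genes had a median of 0.06 over 20 genes and cholesterol synthesis genes 0.04 over 19, with 0 in the looser count in either.

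Thyroid hormone shapes the postnatal brain, and its response list had one of the higher medians, 0.32, with 10 of 16 higher and 0.21 without the first vehicle array. It held 4 genes in the looser count, each higher (2.80% of all clusters and 3.94% of bright ones). Of the 16 genes 12 are bright, and all bright clusters had a median of 0.06 (-0.01 without the first vehicle array). Dio2, the deiodinase that makes active hormone in astrocytes, read 8.05 and 8.53 in vehicle and 9.02 and 9.20 after clothianidin (0.82 ± 0.28, and 0.58 without). Shh, a morphogen under hormone control, read 5.97 and 6.49 against 6.92 and 7.24 (0.85 ± 0.29, and 0.59 without). Aldh1a1, which makes retinoic acid, read 9.61 and 10.61 against 11.20 and 10.88 (0.93 ± 0.37, and 0.43 without), and the last of the 4 was Nrgn. Among 23 imprinted genes Mest, expressed from the paternal copy, read 12.60 and 13.06 in vehicle and 13.55 and 13.85 after clothianidin (0.87 ± 0.28, and 0.64 without), whereas the list was lower in 13 and higher in 10, and lower in 9 and higher in 14 without. Clock genes were higher in 13 of 21 cases, led by Nr1d1 (0.56 ± 0.26, and 0.55 without) and Dbp (0.90 ± 0.48, and 0.38 without).

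The same exposure was measured at 10 weeks against its own vehicle arrays, so the ages share no controls. The test of the difference between the effects called 0 of 22206 clusters (0%) in limma, with 695 (3.13%) at an unadjusted p under 0.05. Among the 10 higher genes, 8 were also higher at 10 weeks, with differences from -0.44 to 0.76, and among the 10 lower ones 6 were also lower, from -1.12 to 0.28. Over all clusters 56.5% had the same sign at both ages, and 51.3% without the first 3-week vehicle array. Cdkn1a differed by -0.44 at 10 weeks and Tgs1 by -0.22, while Eif2s3y differed by 0.16 and Slc39a12 by 0.28. The 10-week arrays of both exposures read 7.68 to 8.08 for Eif2s3y and 10.35 to 10.87 for Slc39a12. In both genes these values lay near the 3-week clothianidin arrays and below the 3-week vehicle arrays. The difference between the ages was -1.95 ± 0.40 for Cdkn1a and 1.88 ± 0.39 for Eif2s3y, with adjusted p 0.998 for both in limma. Rsrp1 stood at -1.12 at 10 weeks against -1.34 at 3 weeks, and Slc35a4 at 0.76 against 1.20. Over all 22206 clusters the differences at 3 and 10 weeks correlated at a Pearson r of 0.175, and at -0.01 when the first vehicle array at 3 weeks was left out. These correlations run across genes, which are not independent replicates.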

How the data were processed

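Biotin-labelled whole-transcript arrays gave log2 intensities, which the authors made with RMA and deposited per the submitters' processing notes; version, build and joint normalisation are not given in the sources used here. That the values are log2 was checked on their range. All 22206 clusters were used as deposited; 19572 carry 1 symbol, all matched by gene ID to RefSeq (GRCm38.p6), and 2634 carry none. Lists took the brightest cluster of a gene. A mean per group was fitted to all 8 arrays in limma 3.58.1 (R 4.3.3; 4 residual degrees of freedom, default prior), two-sided, with Benjamini-Hochberg adjustment over all clusters and a threshold of 0.05. On simulated data only the mean estimate of differences put into them was checked, not the error rate or the power of the model. The arrays' number limits the precision.

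The rule for named genes is stated with them; small RNAs, predicted genes and chemosensory receptors were not named. Each list adds its 2 members with the largest test statistic and defining members; a few more were chosen after their values were seen. Members and lists were chosen with earlier results of these data known. Alternatives were leaving out each 3-week array, the 3-week arrays alone, a replicate block, quantile normalisation, centring, scaling, a level filter, a trended prior, array weights, Ttr as covariate and other thresholds.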

Additional observations from a re-analysis of the deposited data

How the results depend on the processing

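With 2 arrays a group, array number and the first vehicle array at 3 weeks limit every result. The count past the adjusted threshold was 0 in every setting run, at 0.1 too, and so was that of the difference between the ages. The looser count of 1295 became 711 in the brighter clusters, where fewer clusters were tested, and ranged from 762 to 2923 when 1 array of 3 weeks was left out (812 without the first clothianidin array). With the replicate number as a block the looser count was 1115 with 0 past the threshold; deviations of arrays of the same number correlated at r = -0.04 at 3 weeks and 0.138 at 10 weeks, and no label ties the numbers to animals or litters, so the numbers were not taken as pairs. Most named genes were chosen for groups without overlap, and their sign cannot change when 1 array is left out. That part of the following count was thus fixed by the choice. The replicate block, the trended prior, the level filter and the 3-week arrays alone leave a gene's difference unchanged. So do the array weights, which were equal within each group. None of these settings could turn a sign, so that part of the count was fixed too. Of 528 gene values under other settings 523 kept their direction. The 5 others came from leaving out the first vehicle array (Chrna4 0.46, Ttr -6.21, Fos 0.44) or the first clothianidin array (Ttr -5.74, Fos 0.17). Over the 4 arrays left out in turn, Chrna4 ranged from -1 to 0.46, Ttr from -6.21 to 6.46 and Fos from -1.04 to 0.44. Of 650 list medians 42 moved by more than their spread between replicates, 34 of them when 1 array was left out. The cause was not tested.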

Other observations

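Receptor and survival genes outside the groups above differed little. Among 16 serotonin and adrenergic receptor genes 9 were higher and 7 lower, with a median of 0.06 and 0 in the looser count. Htr5b, a serotonin receptor, read 6.53 and 6.37 in vehicle and 7.18 and 6.88 after clothianidin, so the groups did not overlap. Opioid, cannabinoid and adenosine receptors were higher in 4 of 6 cases, led by the mu opioid receptor gene Oprm1, whose arrays overlapped at 7.32 and 6.37 against 7.19 and 7.11. Kainate and delta receptors were higher in 4 and lower in 4 of 8 cases, and Grid1 read 7.74 and 8.05 against 8.85 and 8.11. Of 25 apoptosis genes 12 were higher and 13 lower; Bcl2, which restrains the mitochondrial pathway, read 8.34 and 9.18 against 9.28 and 9.47. Blood cell genes were higher in 5 and lower in 4 of 9 cases. The cortex, thalamus and striatum list, which marks tissue next to the hippocampus, was higher in 13 of 18 cases, with a median of 0.16 (0.14 without the first vehicle array).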
